A study of Mus musculus with 8 samples.

Results

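The human 16p11.2 band carries a block of genes whose recurrent deletion or duplication is tied to autism, schizophrenia and altered body size, and SETD1A lies in the same band. Mouse chromosome 7 carries the matching block. The genes described here are 10 of its members: *Kctd13*, *Taok2*, *Mapk3*, *Ppp4c*, *Ino80e*, *Aldoa*, *Coro1a*, *Sez6l2*, *Doc2a* and *Prrt2*. They were taken by symbol from the 31053 gene rows of the count tables, irrespective of their level. The 10 symbols matched 11 rows, because *Aldoa* names a second gene ID with 5 UMIs in all libraries, which was left aside. In GRCm38 with the GENCODE vM21 annotation the 10 genes span 321 kb of chromosome 7, and the span ends 755 kb before the start of *Setd1a*. The edited gene and the 10 genes are therefore on the same chromosome.

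The study dissociated prefrontal cortex (PFC) and striatum of adult male C57BL/6N mice into single cells and counted unique molecular identifiers (UMIs, the tags that mark single RNA molecules) per gene and cell with the 10x Chromium platform. Each tissue gave 2 wild-type (WT) and 2 *Setd1a*+/- libraries, 8 libraries in total, and each library pooled the tissue of 2 animals given as 8 to 10 weeks old by the labels and as older by the methods. The *Setd1a*+/- mice carry 1 copy of *Setd1a* with a CRISPR-Cas9 frameshift deletion in the 15th exon, ahead of the exons of the catalytic SET domain. The line was made in B6D2F1 zygotes and crossed back to C57BL/6N, the controls were WT littermates, and the labels give no treatment. The labels name the striatal tissue as NAc, whereas the design text and the study name dorsal and ventral striatum, and striatum is used here. Each of the 2 biological replicates of a tissue gave 1 library of each genotype, and the replicate number marks these pairs.

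Genes of the block act in different parts of the cell. *Kctd13* encodes an adaptor that brings RhoA to the Cul3 ubiquitin ligase, *Mapk3* encodes the kinase ERK1, and *Taok2* encodes a kinase upstream of p38 and JNK signaling. *Sez6l2* encodes a cell-surface protein of the Sez6 family, *Doc2a* a calcium sensor of vesicle release, and *Prrt2* a presynaptic protein that binds SNARE proteins. *Ppp4c* encodes the catalytic subunit of protein phosphatase 4, *Ino80e* a subunit of the INO80 chromatin remodeler, *Aldoa* the glycolytic enzyme aldolase A, and *Coro1a* an actin-binding coronin best known from leukocytes.

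Levels are given as CPM, which divides the UMIs of a gene in the cells of 1 type and 1 library by all UMIs of those cells, per 1000000. Means carry the SD over 4 libraries. The cells are those that the authors annotated, 1508 to 4361 per library, and the libraries held 15154268 to 26277553 UMIs. Pairs of libraries shared 1 to 24 barcodes, at most 0.877% of the smaller library. Of the markers listed for the types, 23 of 23 in PFC and 27 of 29 in striatum were highest in their own type, and the exceptions were *Gad2* and *Slc32a1*, which were highest in D1 medium spiny neurons (MSNs). The striatal cells annotated as interneurons also held the excitatory neuron markers *Slc17a7* and *Neurod6*, with a summed level of 229 to 352 CPM against at most 10.6 CPM in the other striatal types. *Setd1a* itself had 46 to 206 UMIs per library. Its level over all annotated cells was between 5.59 and 15.2 CPM, and the heterozygous library was lower than the WT library in each of the 4 pairs, although the PFC genotypes overlapped. Transcripts of a frameshift allele can still be counted. The annotation also holds *Gm49388*, which covers 3523 of the 6795 exon bases of *Setd1a* on the same strand and had 0 UMIs. Reads within the shared bases cannot be assigned to either gene, which limits the *Setd1a* counts and the genotype estimates below. UMI counts were not scaled to transcript length, so the level of 1 gene is compared across cell types below, and genes are not ranked against each other.

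The UMIs available differed widely among the 10 genes. Over all libraries and annotated cells, *Aldoa* had 129597 UMIs, *Kctd13* 12455, *Sez6l2* 9787, *Ppp4c* 7108, *Mapk3* 7106, *Coro1a* 5111, *Ino80e* 4435, *Taok2* 1510 and *Doc2a* 1256. *Prrt2* had 14.

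**Figure D1:**
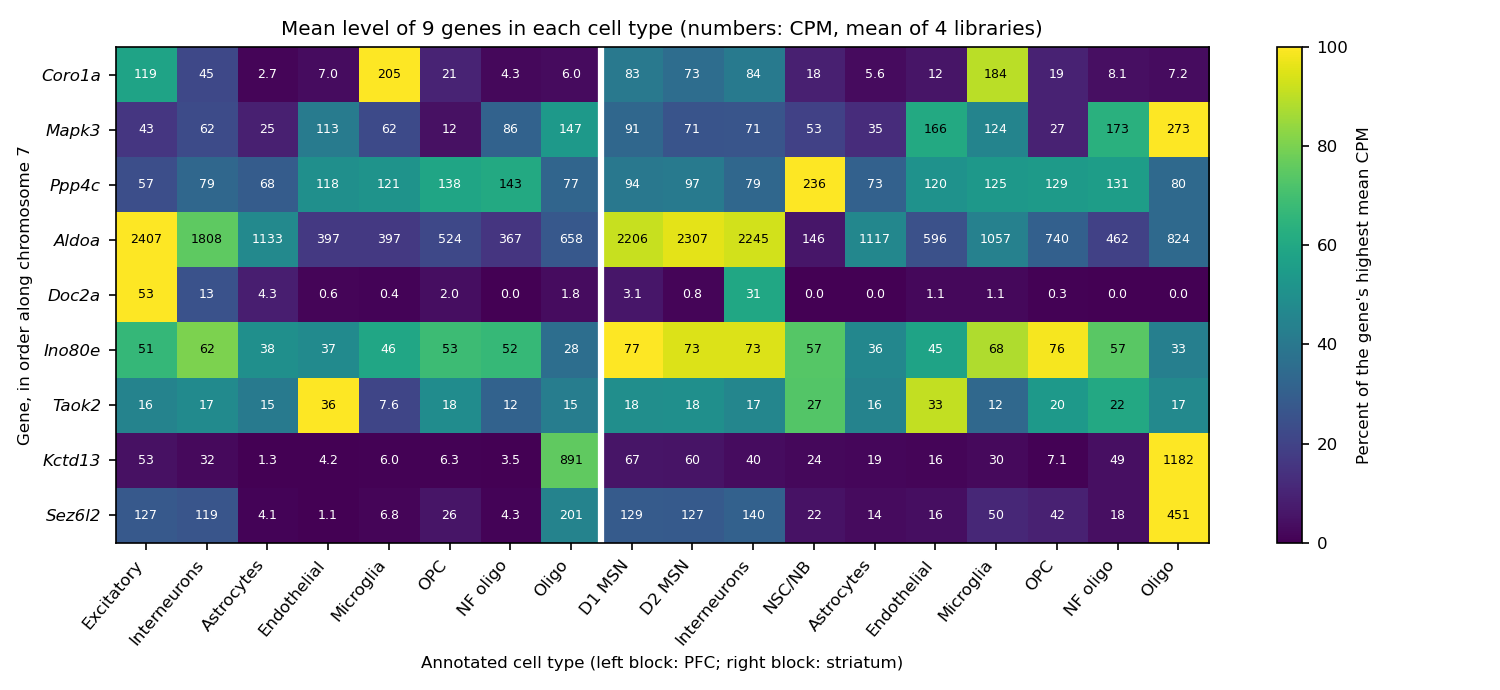
Mean level of 9 genes (all but *Prrt2*) in the 8 annotated cell types of PFC and the 10 of striatum. Each row is a gene in its order along chromosome 7, the printed number is the mean CPM of 4 libraries, and the colour gives the mean as a percent of the highest mean of that gene, so colours compare cell types within a row. *Kctd13* stands out in mature oligodendrocytes (891 and 1182 CPM), *Coro1a* in microglia (205 and 184 CPM), *Doc2a* in PFC excitatory neurons (52.8 CPM) and *Ppp4c* in striatal neural stem cells and neuroblasts (236 CPM). OPC, oligodendrocyte progenitor cells; NF oligo, newly formed oligodendrocytes; Oligo, mature oligodendrocytes; NSC/NB, neural stem cells and neuroblasts.

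The largest gap between the leading cell type and the next belonged to *Kctd13* (chromosome 7, 126928879 to 126945631, plus strand), the Cul3 adaptor. It was concentrated in mature oligodendrocytes, the cells that form myelin. In the striatal oligodendrocytes its level was 1100 and 1262 CPM in WT replicates 1 and 2 against 1118 and 1246 CPM in the *Setd1a*+/- replicates, a mean of 1182 ± 84.3 CPM (SD, n = 4). The next type was D1 MSNs at 67.3 ± 6.67 CPM, below it by a factor of 17.6, followed by D2 MSNs at 60.2 ± 4.88 CPM, and the libraries of oligodendrocytes and D1 MSNs did not overlap. Between 87.3 and 94.0% of striatal oligodendrocytes had at least 1 *Kctd13* UMI, against 2.34 to 9.68% of striatal astrocytes, at median depths of 2035 to 2124 and 1863 to 2322 UMIs per cell. With every cell thinned to 1000 UMIs, 65.2 to 76.1% of the oligodendrocytes still had a *Kctd13* UMI.

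In PFC oligodendrocytes *Kctd13* was also far above every other type, but the libraries differed. The level was 492 and 1366 CPM in WT replicates 1 and 2 against 311 and 1395 CPM in *Setd1a*+/- replicates 1 and 2, a mean of 891 ± 570 CPM. Both replicate 1 libraries were below both replicate 2 libraries, and the genotypes overlapped. These values rest on 848, 1109, 244 and 977 UMIs, and the share of oligodendrocytes with a UMI was 66.9, 87.7, 49.5 and 90.2% in the same order. The myelin markers *Mog*, *Mag* and *Mobp* summed to 7928 and 9561 CPM in WT against 7959 and 10166 CPM in *Setd1a*+/- oligodendrocytes of PFC. They too were lower in replicate 1 than in replicate 2, by less than *Kctd13*, and their part in the *Kctd13* values was not tested.

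Among the other PFC types *Kctd13* was found mainly in neurons. Excitatory neurons had 49.3 and 60.3 CPM in WT against 52.6 and 51.4 CPM in *Setd1a*+/- replicates 1 and 2, a mean of 53.4 ± 4.81 CPM, with no separation of the replicates. Interneurons had 32.2 ± 8.06 CPM. All other PFC types averaged at most 6.29 CPM, the value of the progenitors, and endothelial cells held 7, 4, 4 and 2 UMIs in the 4 libraries. Across the excitatory subtypes the mean ran from 34.4 CPM in DL-Tshz2 neurons to 64.1 CPM in DL-Nnat neurons, and DL and SL mark deep-layer and superficial-layer subtypes.

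Along the oligodendrocyte lineage, which runs from progenitors through newly formed to mature oligodendrocytes, *Kctd13* appeared late. The mature cells were 142 times above the progenitors in PFC and 167 times above them in striatum, as ratios of the means. In striatum the level rose at both steps in 4 of 4 libraries, from 7.07 ± 4.90 CPM in progenitors to 49.4 ± 44.4 CPM in newly formed and then to mature oligodendrocytes. In PFC the newly formed cells averaged 3.52 CPM, no higher than the progenitors at 6.29 CPM, and the whole rise fell between newly formed and mature cells.

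**Figure D2:**
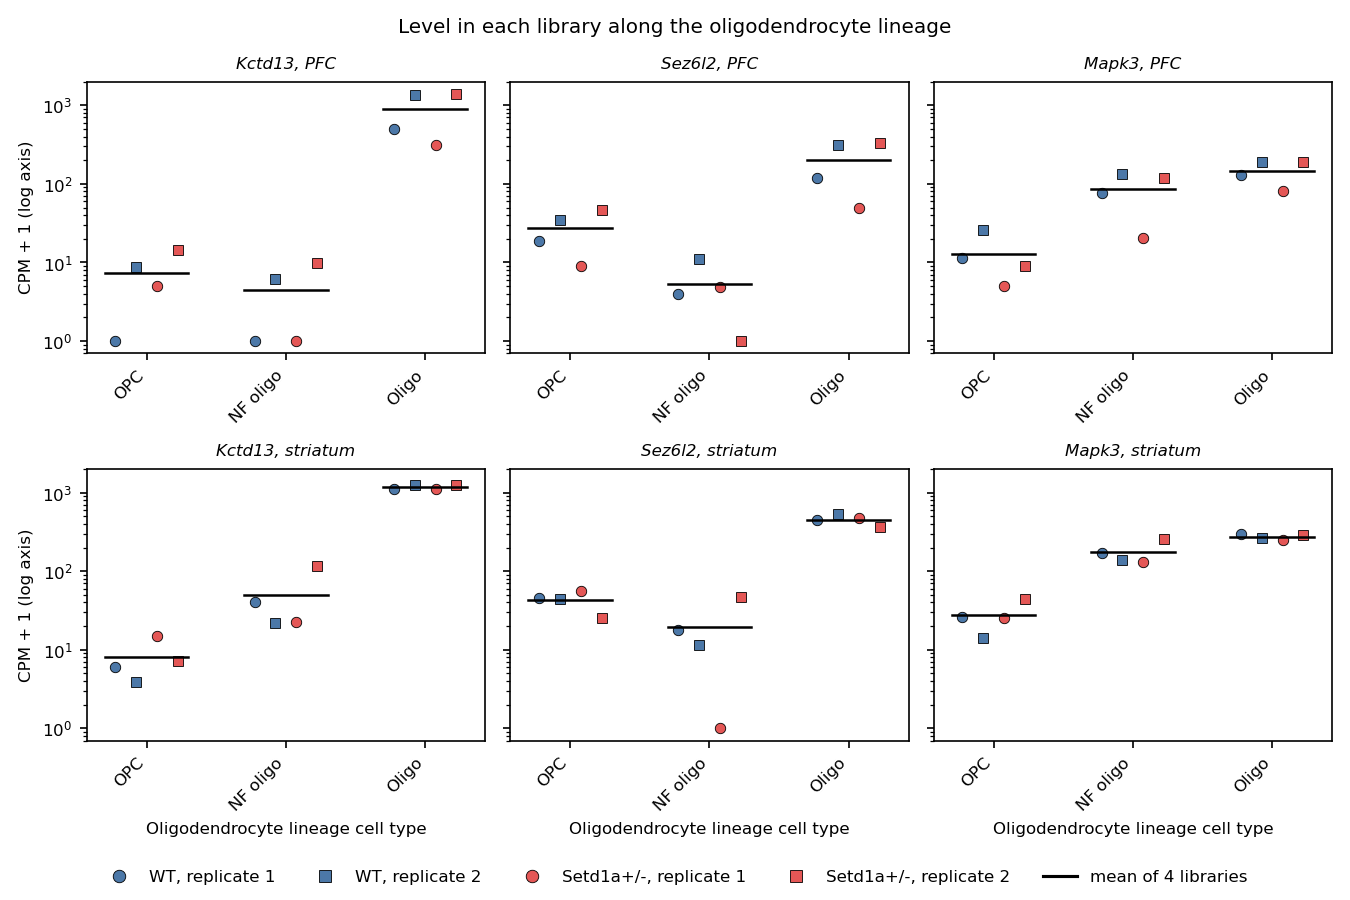
Levels of *Kctd13*, *Sez6l2* and *Mapk3* in oligodendrocyte progenitors (OPC), newly formed (NF oligo) and mature oligodendrocytes (Oligo) of PFC (top) and striatum (bottom). The y axis is CPM + 1 on a log scale, each point is a library, and the black line is the mean of 4 libraries. *Mapk3* climbed at both steps in 8 of 8 libraries, whereas *Sez6l2* was lowest in newly formed cells on average, at 4.27 CPM in PFC and 18.4 CPM in striatum.

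A stretch before a transcript start of *Kctd13* is shown because this gene has the steepest cell type pattern of the block. A stretch before a transcript start of *Coro1a* is shown because this gene has a different pattern. Both are the 250 bases before a RefSeq transcript start in GRCm38.p6, written 5′ to 3′ in the direction of transcription, with the GC box GGGCGG, which reads CCGCCC on the other strand, in capitals. The first is chr7:126928629-126928878 on the plus strand and the second is chr7:126704817-126705066 on the minus strand. The *Coro1a* stretch lies inside the annotated gene, before an internal start, whereas the *Kctd13* stretch lies just upstream of its gene.
Kctd13: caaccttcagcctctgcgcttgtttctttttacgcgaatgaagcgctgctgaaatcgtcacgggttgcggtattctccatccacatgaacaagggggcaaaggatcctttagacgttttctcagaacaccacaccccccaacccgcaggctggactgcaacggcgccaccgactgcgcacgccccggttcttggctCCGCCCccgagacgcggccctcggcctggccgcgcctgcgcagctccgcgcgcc
Coro1a: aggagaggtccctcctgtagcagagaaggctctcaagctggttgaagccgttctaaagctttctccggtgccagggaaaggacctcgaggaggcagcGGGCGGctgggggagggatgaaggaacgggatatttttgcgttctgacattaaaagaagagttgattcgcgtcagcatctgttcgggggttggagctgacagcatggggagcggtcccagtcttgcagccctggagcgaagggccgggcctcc
The *Kctd13* stretch holds 26 CpG dinucleotides and the *Coro1a* stretch 13, against a median of 6 over all 32851 starts in the table. The table has another *Coro1a* start, whose stretch holds 8 and no GC box, and the stretch shown is the one with the box. The stretch before *Setd1a* holds 25. A GC box was present in 32.7% of all starts, so its presence here does not set these genes apart. Neither ACAAAG, a core of Sox factor sites, nor GAGGAAGT, a core of PU.1 sites, was found on either strand of the stretches available for the genes of the block, and 16.5% and 2.44% of all starts hold them. The table gave 11 starts of 6 of the 10 genes, without *Mapk3*, *Sez6l2*, *Doc2a* and *Prrt2*.

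*Sez6l2* (chromosome 7, 126950563 to 126970606, plus strand), the cell-surface protein gene, was present in both neurons and mature oligodendrocytes. Of the genes described here it lies nearest to *Kctd13*. In striatum, oligodendrocytes had 446 and 531 CPM in WT against 468 and 359 CPM in *Setd1a*+/- replicates 1 and 2, a mean of 451 ± 71.4 CPM. The neurons came next and were close to each other, with 140 ± 7.93 CPM in interneurons, 129 ± 4.77 CPM in D1 MSNs and 127 ± 10.0 CPM in D2 MSNs. The oligodendrocyte libraries were all above the interneuron libraries, with a ratio of the means of 3.22, while the 3 neuron types overlapped. Between 55.2 and 64.4% of striatal oligodendrocytes had a *Sez6l2* UMI, against 1.98 to 3.74% of striatal astrocytes, at the depths given for *Kctd13*.

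In PFC *Sez6l2* had the same leading types and the widest spread between replicates. Oligodendrocytes had 118 and 312 CPM in WT against 48.4 and 327 CPM in *Setd1a*+/- replicates 1 and 2. Excitatory neurons had 85.0 and 180 CPM in WT against 26.1 and 215 CPM in *Setd1a*+/- replicates, from 321, 1291, 122 and 759 UMIs. Interneurons had 100 and 167 CPM against 19.97 and 189 CPM. In each of these types both replicate 1 libraries were below both replicate 2 libraries, with *Setd1a*+/- replicate 1 the lowest and *Setd1a*+/- replicate 2 the highest. The same order of replicates held in progenitors, microglia, astrocytes and all 7 excitatory subtypes, among them SL-Myh7 neurons with 98.3 and 265 CPM in WT against 33.9 and 323 CPM in *Setd1a*+/- replicates. It was not present in striatal oligodendrocytes or striatal neurons.

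A fall of at least 2-fold from both replicate 2 libraries to both replicate 1 libraries was found in 2.19% of the gene and type pairs of PFC and in 0.671% of those of striatum. Among the genes of the block it was found in 3 of 45 pairs in PFC, *Sez6l2* in excitatory neurons and *Kctd13* and *Sez6l2* in oligodendrocytes, and in 0 of 69 in striatum. In PFC droplets with few UMIs (10 to 100, mostly without a cell), *Sez6l2* was at 26.8 and 96.7 CPM in WT against 20.2 and 118 CPM in *Setd1a*+/- replicates 1 and 2, in the same order as in the cells. *Kctd13* was at 72.1 and 83.8 CPM against 65.5 and 79.5 CPM there. *Coro1a* was at 47.6 and 203 CPM against 41.9 and 190 CPM. As in excitatory neurons, both replicate 1 libraries were below both replicate 2 libraries. Of the genes of the block with UMIs there, all but *Ppp4c* were lower in replicate 1 than in replicate 2 of both genotypes, as was *Setd1a*. The share of all genes with this order in the droplets was not computed, so the order cannot be read as particular to the block. What set the 2 PFC replicates apart was not tested. In striatal droplets of this kind *Sez6l2* was at 129 to 138 CPM and *Kctd13* at 78.8 to 98.6 CPM. The part of these droplet levels in the levels of striatal neurons was not tested.

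**Figure D3:**
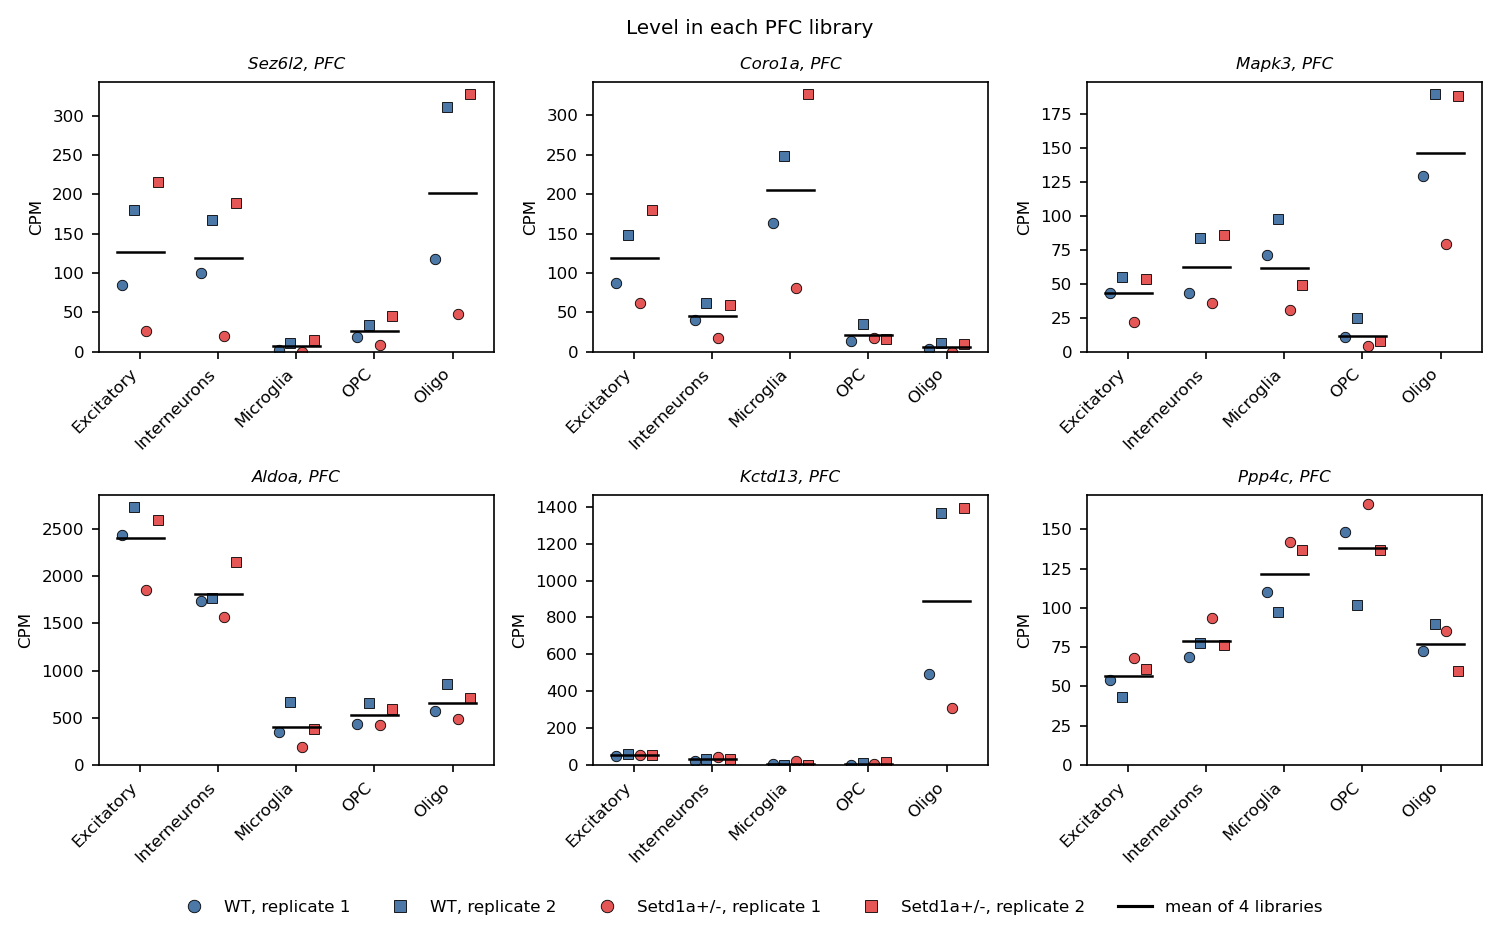
Levels of 6 genes in 5 cell types of each PFC library. The y axis is CPM, circles are replicate 1, squares are replicate 2, blue is WT, red is *Setd1a*+/- and the black line is the mean of 4 libraries. For *Sez6l2* and *Coro1a* in neurons and for *Kctd13* in oligodendrocytes the circles lie below the squares in both genotypes, and *Ppp4c* shows no such order in these types.

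The kinase gene *Mapk3* (chromosome 7, 126759601 to 126765819, plus strand) was also highest in mature oligodendrocytes in 8 of 8 libraries, but with a broader distribution than *Kctd13*. In striatum the oligodendrocytes had 294 and 263 CPM in WT against 245 and 290 CPM in *Setd1a*+/- replicates 1 and 2, a mean of 273 ± 23.1 CPM. Newly formed oligodendrocytes followed with 173 ± 55.7 CPM and endothelial cells with 166 ± 9.77 CPM. The newly formed cells overlapped with both of the others, and endothelial cells did not reach the mature oligodendrocytes. Neurons were lower, with 91.2 ± 11.6 CPM in D1 MSNs, and the progenitors were lowest with 26.5 ± 12.4 CPM. The mature cells were 10.3 times above the progenitors in striatum and 12.4 times in PFC, and the level rose at both lineage steps in all 8 libraries.

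In PFC the *Mapk3* level of oligodendrocytes was 129 and 190 CPM in WT against 79.0 and 189 CPM in *Setd1a*+/- replicates, a mean of 147 ± 53.2 CPM. Endothelial cells had 113 ± 44.3 CPM and overlapped with them, and excitatory neurons had 43.2 ± 15.2 CPM. Among the excitatory subtypes, SL-Myh7 neurons had the highest mean, 117 ± 35.0 CPM, with 129 and 134 CPM in WT against 64.7 and 139 CPM in *Setd1a*+/- replicates. DL-Foxp2 neurons, of cortical layer VI, had the lowest with 24.3 and 40.9 CPM in WT against 9.53 and 15.4 CPM in *Setd1a*+/- replicates, from 25, 78, 12 and 6 UMIs.

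*Taok2* (chromosome 7, 126865678 to 126884703, minus strand), the gene of a kinase that also shapes dendrites, had low counts and was highest in endothelial cells in 3 of 4 PFC libraries and 4 of 4 striatal libraries. Striatal endothelial cells had 32.6 and 34.2 CPM in WT against 30.9 and 34.6 CPM in *Setd1a*+/- replicates, a mean of 33.1 ± 1.71 CPM. Other striatal types averaged between 12.3 CPM in microglia and 26.7 CPM in neural stem cells and neuroblasts, and D1 and D2 MSNs had 18.1 ± 4.73 and 18.1 ± 0.942 CPM. In PFC endothelial cells the level was 37.6 and 49.0 CPM in WT against 15.8 and 43.4 CPM in *Setd1a*+/- replicates, from 75, 37, 21 and 18 UMIs.

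*Coro1a* (chromosome 7, 126699773 to 126707787, minus strand), the coronin gene, was led by microglia, the resident macrophages of the brain, in 8 of 8 libraries. In striatal microglia it was at 130 and 202 CPM in WT against 223 and 179 CPM in *Setd1a*+/- replicates, a mean of 184 ± 39.9 CPM. The 3 neuron types followed at 73.4 to 84.3 CPM and overlapped with each other but not with microglia. Oligodendrocytes and astrocytes were at 7.16 and 5.65 CPM. In PFC microglia the level was 163 and 249 CPM in WT against 81.0 and 327 CPM in *Setd1a*+/- replicates, from 92, 46, 8 and 67 UMIs. Excitatory neurons had 86.6 and 149 CPM in WT against 61.8 and 179 CPM in *Setd1a*+/- replicates, a mean of 119 ± 54.3 CPM, so their range overlapped that of microglia. Interneurons were below excitatory neurons, at 44.8 ± 20.5 CPM, with no overlap. Among the 5 blood leukocyte markers, *Lyz2* carried the signal in microglia and 3 or 4 of the 5 were at 0 in each library, with summed levels of 425 to 1190 CPM in PFC and 867 to 4476 CPM in striatum. The part of blood cells in the *Coro1a* level was not tested.

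*Doc2a* (chromosome 7, 126847416 to 126852705, plus strand), the calcium sensor of vesicle release, was the gene most restricted to neurons. PFC excitatory neurons had 54.6 and 55.3 CPM in WT against 49.4 and 51.9 CPM in *Setd1a*+/- replicates, a mean of 52.8 ± 2.69 CPM, the smallest relative spread of the block in these cells. Interneurons averaged 13.4 CPM, 3.94 times lower and without overlap, and the 6 non-neuronal types averaged 4.33 CPM or less. Between 24.7 and 36.8% of excitatory neurons had a *Doc2a* UMI, against 0 to 0.980% of PFC oligodendrocytes. The median depths were 5732 to 9177.5 UMIs in the neurons and 1888 to 2190.5 in the oligodendrocytes, and after thinning to 1000 UMIs the shares were 4.13 to 4.71% and 0 to 0.327%.

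Within the excitatory neurons *Doc2a* followed the subtypes. DL-Etv1 neurons had 70.2 and 77.1 CPM in WT against 77.3 and 64.7 CPM in *Setd1a*+/- replicates, and DL-Foxp2 neurons had 38.9 and 26.7 CPM against 32.6 and 28.2 CPM. All 4 libraries of DL-Etv1 neurons were above all 4 of DL-Foxp2 neurons, with means of 72.3 ± 6.07 and 31.6 ± 5.45 CPM. DL-Pou3f1 neurons averaged 75.2 CPM, from 62 cells.

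**Figure D4:**
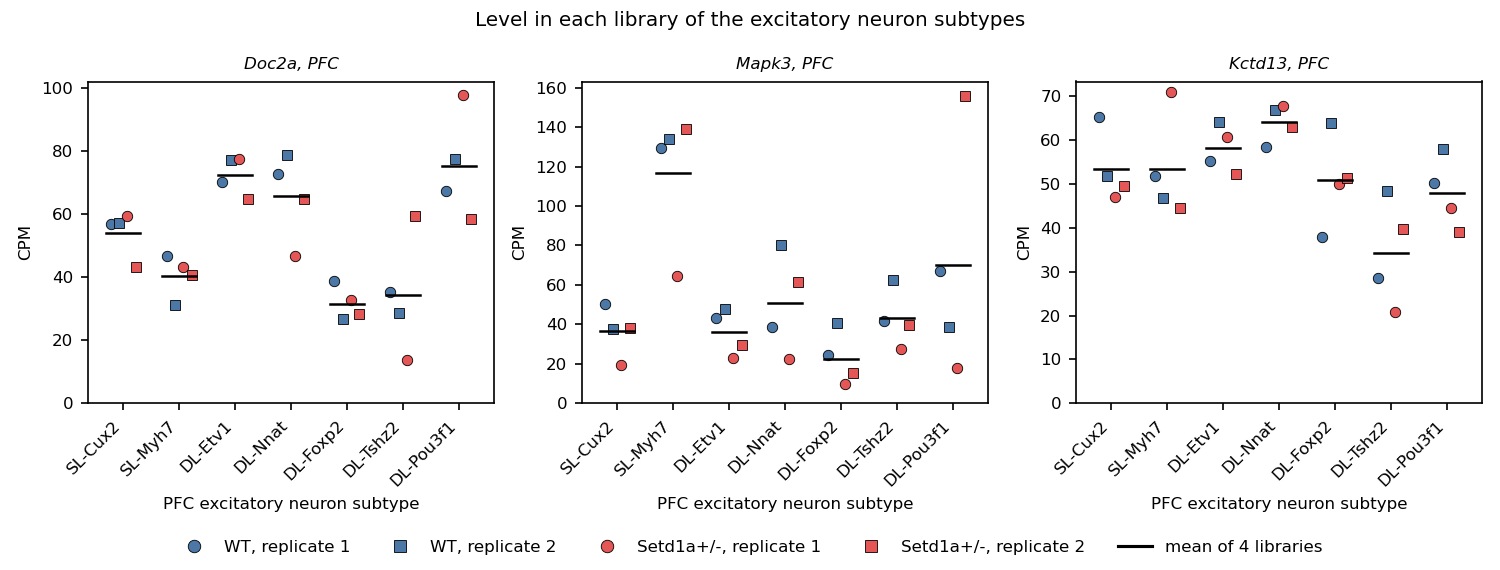
Levels of *Doc2a*, *Mapk3* and *Kctd13* in the 7 excitatory neuron subtypes of PFC. The y axis is CPM, each point is a library and the black line is the mean of 4 libraries. *Doc2a* was lowest on average in DL-Foxp2 neurons (31.6 CPM), *Mapk3* was highest in SL-Myh7 neurons (117 CPM), and the subtypes of *Kctd13* lie closer together, with means from 34.4 to 64.1 CPM.

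In striatum *Doc2a* was almost absent from the MSNs, which are GABAergic. The annotated interneurons had 36.4 and 23.0 CPM in WT against 29.6 and 36.8 CPM in *Setd1a*+/- replicates, a mean of 31.4 ± 6.50 CPM. D1 MSNs averaged 3.15 CPM, 9.99 times lower and without overlap, and D2 MSNs 0.752 CPM. No UMI was found in striatal astrocytes, neural stem cells and neuroblasts, newly formed or mature oligodendrocytes, where a count of 0 allows up to 18.9 CPM in the oligodendrocytes of the shallowest library and up to 68.8 CPM in newly formed oligodendrocytes. The same annotated interneurons were the striatal group with excitatory markers, as given above, and how much of the *Doc2a* level came with them was not tested.

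*Prrt2* (chromosome 7, 127017531 to 127021211, minus strand), the SNARE-binding protein gene, could not be described by cell type. Its 14 UMIs were spread as 0 and 2 in WT and 0 and 1 in *Setd1a*+/- libraries of PFC and as 4, 2, 2 and 3 in striatum. The annotation holds a second gene, *Gm42742*, which covers 2918 of the 3159 exon bases of *Prrt2* on the same strand and had 7 UMIs. Reads within the shared bases cannot be assigned to either gene, so a low count here says little of the level of the transcript.

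*Aldoa* (chromosome 7, 126795234 to 126800751, minus strand), the glycolytic aldolase gene, was highest in neurons of both tissues. PFC excitatory neurons had 2441 and 2739 CPM in WT against 1857 and 2593 CPM in *Setd1a*+/- replicates, a mean of 2407 ± 387 CPM, and interneurons had 1808 ± 245 CPM. The 3 striatal neuron types overlapped with each other at 2206 to 2307 CPM. Astrocytes were next in both tissues, at 1133 ± 87.5 and 1117 ± 255 CPM. The lowest level was in striatal neural stem cells and neuroblasts, with 197 and 123 CPM in WT against 124 and 139 CPM in *Setd1a*+/- replicates, below every other striatal type in each library.

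*Ppp4c* (chromosome 7, 126785866 to 126792496, minus strand), the phosphatase 4 catalytic subunit gene, was highest where *Aldoa* was lowest. Striatal neural stem cells and neuroblasts led with 231 and 270 CPM in WT against 189 and 253 CPM in *Setd1a*+/- replicates, a mean of 236 ± 35.1 CPM, 1.80 times the next type and without overlap. In PFC the newly formed oligodendrocytes and the progenitors averaged 143 ± 27.0 and 138 ± 27.1 CPM and overlapped, and excitatory neurons were lowest at 56.6 ± 10.5 CPM.

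*Ino80e* (chromosome 7, 126850960 to 126862377, minus strand), the INO80 subunit gene, varied least among types. The PFC means ran from 27.9 ± 7.79 CPM in oligodendrocytes to 61.9 ± 9.43 CPM in interneurons, and the striatal means from 33.2 ± 10.4 CPM in oligodendrocytes to 77.1 ± 6.30 CPM in D1 MSNs. Mature oligodendrocytes were lowest in both tissues. *Ino80e* and *Doc2a* share 1103 exon bases on opposite strands, and the strand setting of the counts is not stated beyond the tool, so a small exchange of reads between them cannot be told apart.

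Other genes had patterns close to those of the block. Over the 18 combinations of tissue and cell type, among 11303 genes that reached 20 CPM in at least 1 of them, the highest Pearson correlations of log2(CPM + 1) with *Kctd13* were those of *Epb41l3* (0.92), *Tmem151a* (0.91) and *Sbf1* (0.90). For *Sez6l2* they were *Stmn4* (0.92), *Epb41l3* (0.91) and *Ppp2r2c* (0.91), and *Epb41l3* is thus in both lists. For *Coro1a* they were *Fmnl1* (0.92), *Evl* (0.92) and *Ebi3* (0.90), for *Doc2a* *Grm8* (0.96), *Syt13* (0.93) and *Nwd2* (0.93), and for *Mapk3* *Tpd52* (0.83), *Acsl1* (0.82) and *Map7d1* (0.81). *Aldoa* was closest to *Emc9*, *Gpi1* and *Hagh* (0.93 each), and *Gpi1* encodes another glycolytic enzyme. *Ppp4c* was closest to *Nsa2* (0.93), *Ddx39* (0.92) and *Ppie* (0.91), *Ino80e* to *Meis3* (0.92), *Fbxl15* (0.91) and *Gm42851* (0.90), and *Taok2* to *Arpin* (0.78), *Unc45a* (0.78) and *Chd1* (0.77). The cell types share libraries, and these values are descriptions.

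Neurons were compared with non-neuronal cells in edgeR on the sums of all types, with the library as a block and every type of equal weight. The neural stem cells and neuroblasts of striatum were on neither side, although *Aldoa* was lowest and *Ppp4c* highest in them. A gene was called at a false discovery rate (FDR) under 0.05 and a fold change (FC) above 1.5. In PFC 6 of the 9 genes tested were called, against 57.6% of all genes, 5 of them higher (32.5%) and 1 lower in neurons (25.1%). In striatum 4 of 9 were called, against 49.5%, all higher (27.6%) and none lower (22.0%). Higher in neurons of both tissues were *Doc2a* with a log2 FC of 4.48 in PFC (SE 0.41) and 3.68 in striatum (SE 0.60), *Sez6l2* with 3.43 (SE 0.15) and 1.69 (SE 0.11), *Coro1a* with 2.48 (SE 0.22) and 2.27 (SE 0.13), and *Aldoa* with 1.79 (SE 0.07) and 1.46 (SE 0.07). In striatum the *Doc2a* estimate comes with interneurons at 31.4 CPM, since D1 MSNs were at 3.15 CPM and D2 MSNs at 0.752 CPM, below the means of microglia (1.12 CPM) and endothelial cells (1.08 CPM), and astrocytes and both later oligodendrocyte stages held no UMI. In both tissues *Doc2a* passed the filter on low counts through neurons, so a call of this gene could only be higher in them. *Kctd13* was called higher in PFC neurons, with a log2 FC of 2.14 (SE 0.34), but not in striatum, at 0.43. This contrast averages over 6 non-neuronal types on a log scale, so the oligodendrocyte peak of *Kctd13* and *Sez6l2* weighs as 1 type of 6. *Ppp4c* was called lower in PFC neurons, at -0.84 (SE 0.09), and had -0.41 in striatum. *Mapk3*, *Taok2* and *Ino80e* were not called in either tissue, with log2 FCs between -0.42 and 0.38. The types were annotated from the same cells, and these tests carry that dependence.

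Genes that work with members of the block were tested in the same contrast, in which 32.5% of all genes were called higher and 25.1% lower in PFC neurons, and 27.6 and 22.0% in striatal neurons. Of the vesicle release genes around *Prrt2* and *Doc2a*, 11 of 12 tested were called higher in PFC neurons and 13 of 13 in striatal neurons, among them *Snap25* with log2 FCs of 5.24 and 3.69. Of the 7 Cul3 and RhoA partners of *Kctd13* tested, 2 were called higher and 3 lower in PFC neurons. In striatal neurons 2 were called higher and 2 lower. *Rhoa* was called lower in neurons, at -2.13 in PFC and -1.96 in striatum, as was *Rock1*, whereas *Rock2* and *Cul3* were called higher. *Pold2* was called lower in PFC neurons only. Of the ERK cascade and TAO kinase partners, 5 of 12 tested were called higher and 2 lower in PFC neurons, with *Map2k1*, a kinase that activates ERK1, higher by 1.94. In striatal neurons 7 of 14 were called higher and 2 lower. Of the other phosphatase 4 subunits, 2 of 4 tested in PFC and 2 of 5 in striatum were called lower, and *Ppp4r4* was called higher in striatal neurons. Of the INO80 complex, 1 gene was called higher (*Uchl5*) and 1 lower of 11 tested in each tissue.

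Striatum and PFC were compared in the 7 cell types that both tissues have, with genotype in the model. Of 44 tests of the genes of the block, 4 were called, all higher in striatum, against 7.37% of all genes and types in either direction and 4.65% in that direction. The share called higher was 5.57% of genes in endothelial cells, 6.31% in interneurons and 13.4% in microglia. *Kctd13* was higher in striatal endothelial cells by a log2 FC of 2.14 (SE 0.39, edgeR FDR 0.00585), with 13.3 and 16.4 CPM in WT against 24.8 and 10.9 CPM in *Setd1a*+/- replicates compared with 3.51 and 5.30 CPM and 3.00 and 4.82 CPM in PFC. *Sez6l2* in endothelial cells had a log2 FC of 4.08 (SE 0.62, edgeR FDR 0.00241), which rests on 4 UMIs in PFC and 94 in striatum. Both genes passed the filter on low counts through the striatal libraries, where they were higher. With no filter both were called as well, with log2 FCs of 2.11 for *Kctd13* and 4.06 for *Sez6l2*. *Aldoa* was higher in striatal microglia by 1.28 (SE 0.32, edgeR FDR 0.0148), with 1129 and 1031 CPM in WT against 781 and 1285 CPM in *Setd1a*+/- replicates compared with 353 and 665 CPM and 192 and 376 CPM in PFC. *Coro1a* was higher in striatal interneurons by 0.96 (SE 0.28, edgeR FDR 0.0353), with 89.4 and 99.5 CPM in WT against 89.9 and 58.5 CPM in *Setd1a*+/- replicates compared with 40.0 and 61.7 CPM and 17.8 and 59.6 CPM in PFC. The tissues did not overlap for *Kctd13*, *Sez6l2* and *Aldoa* but did for *Coro1a*, whose call was lost without any of 5 of the 8 libraries. That of *Aldoa* was lost without PFC WT replicate 1 (log2 FC 1.16, edgeR FDR 0.0565).

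Markers of neurons also differed between the tissues in the cells of these calls, in both directions. The D1 MSN markers summed to 634 to 936 CPM in striatal microglia against 0 to 1.77 CPM in PFC microglia. In endothelial cells they summed to 66.1 to 377 CPM in striatum against 0 CPM in PFC, a tissue without annotated MSNs. The excitatory neuron markers went the other way in microglia, with 10.6 to 53.7 CPM in PFC against 0 to 4.20 CPM in striatum. In endothelial cells the excitatory neuron markers summed to 4.01 to 26.5 CPM in PFC against 0 to 0.604 CPM in striatum. The oligodendrocyte markers in endothelial cells summed to 14.6 to 221 CPM in striatum and 10.5 to 21.7 CPM in PFC. In interneurons, the cells of the *Coro1a* call, the excitatory neuron markers summed to 229 to 352 CPM in striatum against 0 to 23.9 CPM in PFC. The part of these markers in the 4 differences, and in that of *Doc2a* in interneurons given next, was not tested. In oligodendrocytes *Sez6l2* differed by 1.23 (SE 0.44, edgeR FDR 0.167) and *Mapk3* by 0.94 (SE 0.24, edgeR FDR 0.0591), neither of which was called. Over the 44 tests 37 estimates were positive and 7 negative, with a median log2 FC of 0.33 against -0.01 over all genes. With the replicate number as a block 9 tests were called. This adds *Aldoa* in endothelial cells, *Doc2a* in interneurons, *Sez6l2* in microglia, and *Mapk3* and *Sez6l2* in oligodendrocytes. The block treats libraries of the same number in PFC and striatum as a common batch. The methods pair libraries within a tissue and do not pair replicates across tissues, so the added calls rest on an assumed pairing.

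The genotypes were compared within each cell type by edgeR, with 2 libraries against 2. In PFC 0 of 45 tests of the genes of the block were called, against 0.0% of all genes and types, and the lowest FDR among them was 0.999. In the excitatory subtypes 0 of 52 were called, against 0.0%, and in striatum, where a call needed an FC above 2, 0 of 69 were called, against 0.00544%. At an unadjusted p under 0.05 there were 0 tests in PFC types (1.7% of all genes), 5 in the subtypes, all lower in *Setd1a*+/- mice (1.6%), and 1 in striatum, lower (2.62%). DESeq2 also called 0 in these 3 comparisons. With both tissues in 1 model, 4 libraries against 4, 0 of 44 were called, against 0.0%, and 1 had an unadjusted p under 0.05 (2.8%).

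The estimates covered similar ranges in the cell types of PFC and striatum, with a larger median SE in PFC. The median log2 FC of the 45 PFC tests was -0.11, with a range of -1.07 to 0.62 and a median SE of 0.45. In striatum the median was -0.05, the range -0.96 to 0.64 and the median SE 0.27. Over all genes the medians were 0.00. For *Kctd13*, the interval of 2 SE around the log2 FC ran from -1.49 to 1.39 in PFC oligodendrocytes. In striatal oligodendrocytes it ran from -0.44 to 0.45, so a 2-fold difference lies outside the interval in striatum but not in PFC. Both intervals are from the fit without the replicate block, so the PFC interval includes the gap between the replicates described above.

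**Figure D5:**
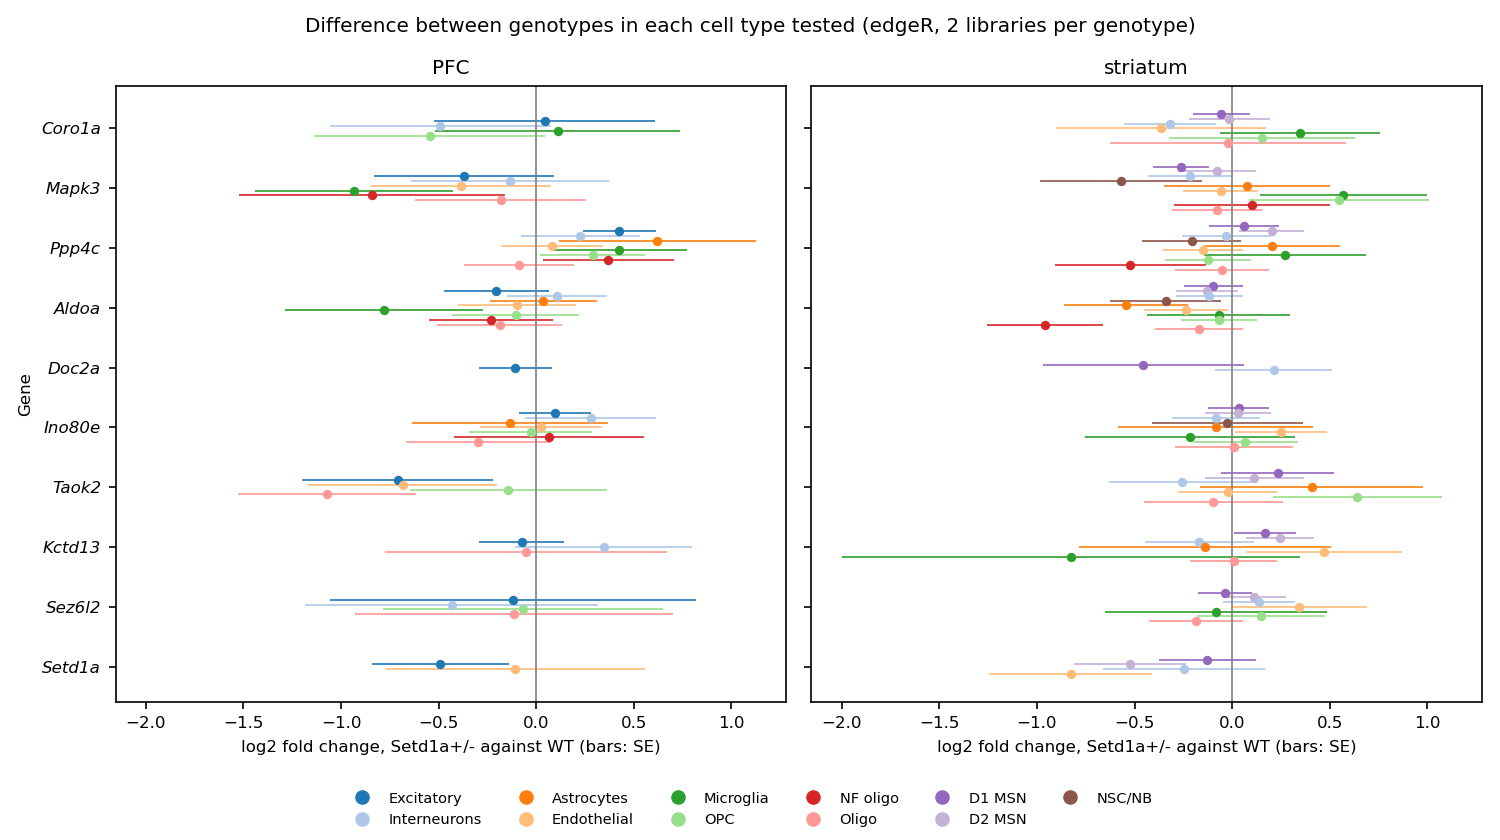
Difference between genotypes for each gene in every cell type in which it was tested, in PFC (left) and striatum (right). The x axis is the log2 fold change of *Setd1a*+/- against WT from edgeR, the bars are 1 SE, colours mark cell types and genes are in their order along chromosome 7 with *Setd1a* last. Estimates for the block lie between -1.07 and 0.62 in PFC and between -0.96 and 0.64 in striatum, and none was called.

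The lowest estimates in the excitatory subtypes were those of *Taok2*, *Sez6l2* and *Mapk3*, each in 1 subtype. In DL-Foxp2 neurons *Taok2* was at 20.4 and 19.4 CPM in WT against 3.97 and 10.3 CPM in *Setd1a*+/- replicates. These values rest on 21, 37, 5 and 4 UMIs. The genotypes did not overlap, but the share of all genes without overlap in these cells was not computed. The lack of overlap therefore cannot be read as particular to *Taok2*. The log2 FC was -1.77 (SE 0.54), and that of *Mapk3* in the same cells was -1.56 (SE 0.46), neither called, with an edgeR FDR of 1.0 for both. *Mapk3* in DL-Etv1 neurons, at 43.2 and 47.8 CPM in WT against 23.2 and 29.5 CPM in *Setd1a*+/- replicates, had -0.77 (SE 0.30). The remaining tests of the subtypes with an unadjusted p under 0.05 were *Ino80e* in DL-Nnat neurons, at -0.80 (SE 0.33), and *Sez6l2* in DL-Tshz2 neurons, at -1.64 (SE 0.72).

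Over all types tested, *Mapk3* had a negative log2 FC in 6 of 6 PFC types and 6 of 6 subtypes (medians -0.38 and -0.65), and in 6 of 10 striatal types. *Taok2* had one in 4 of 4 PFC types and in 4 of 4 subtypes, and in striatum 4 of 7 were positive. The PFC signs rested in part on 1 library. Over all annotated PFC cells *Mapk3* was at 70.2 and 72.5 CPM in WT against 32.0 and 74.5 CPM in *Setd1a*+/- replicates 1 and 2, and *Taok2* at 23.8 and 20.8 CPM against 8.64 and 18.3 CPM. Without PFC *Setd1a*+/- replicate 1 the log2 FC of *Mapk3* was positive in 6 of the 8 PFC types then tested (median 0.26, against -0.07 over 7 types without PFC WT replicate 2) and negative in 4 of 6 subtypes (median -0.23), and that of *Taok2* was negative in 3 of 4 types (median -0.16) and 4 of 5 subtypes (median -0.33). *Ppp4c* had a positive log2 FC in 7 of 8 PFC types and 6 of 6 subtypes (medians 0.33 and 0.37), and in 4 of 10 striatal types. Without PFC *Setd1a*+/- replicate 1 it was positive in 6 of 8 PFC types (median 0.13) and 5 of 6 subtypes (median 0.38). The types of a library were prepared together, so these counts are not independent. *Aldoa* had a negative log2 FC in 6 of 8 PFC types and 10 of 10 striatal types. It was negative in 2 of 8 PFC types without PFC *Setd1a*+/- replicate 1 and in 3 of 8 without PFC WT replicate 2. In striatum it was negative in 8 to 10 of 10 types when 1 library was left out. Its largest estimate was in newly formed oligodendrocytes of striatum, 500 and 730 CPM in WT against 295 and 321 CPM in *Setd1a*+/- replicates, a log2 FC of -0.96 (SE 0.30, edgeR FDR 0.958). In PFC excitatory neurons the estimates of *Doc2a*, *Coro1a* and *Kctd13* were near 0, with log2 FCs of -0.11 (SE 0.19), 0.04 (SE 0.57) and -0.07 (SE 0.22).

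The test of the difference between tissues, the interaction of tissue and genotype, called 0 of 45 at an FDR under 0.05, against 0.0% of all genes and types, and 2 had an unadjusted p under 0.05 (2.21% of all genes and types). Of the 124 other genes annotated within 1.5 Mb of *Setd1a*, 73 were tested in PFC types, 47 in the subtypes and 73 in striatal types. The genotype comparison called 0 of 264 tests in PFC (median log2 FC -0.03), 0 of 215 in the subtypes (-0.06) and 0 of 392 in striatum (-0.09). None of the tests of the partner lists, the paralogs and the other 16p11.2 genes was called between genotypes either, with 0 to 3 of the 19 to 110 tests per list at an unadjusted p under 0.05 in each direction, against 1.6 to 2.8% of all genes in both directions. *Setd1a* itself had log2 FCs of -0.49 (SE 0.35) in PFC excitatory neurons, -0.13 (SE 0.25) in D1 MSNs and -0.52 (SE 0.29) in D2 MSNs. Its estimates were negative in 2 of 2 PFC types and 4 of 4 striatal types, down to -0.83 (SE 0.42) in striatal endothelial cells, and none was called.

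Leaving out 1 PFC library changed the calls of *Sez6l2*. Without *Setd1a*+/- replicate 2 it was called lower in *Setd1a*+/- interneurons with a log2 FC of -2.76 (edgeR FDR 0.00978), and in SL-Cux2, SL-Myh7 and DL-Tshz2 neurons with -2.50 (edgeR FDR 7.37e-07), -2.49 (edgeR FDR 0.000321) and -3.34 (edgeR FDR 0.00263). These calls compare *Setd1a*+/- replicate 1 alone with both WT libraries, and replicate 1 was also the lower of the 2 WT libraries in these cells.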

How the data were processed

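The authors captured dissociated cells on the 10x Chromium platform and made tables of UMI counts per gene and barcode. The submitters' processing notes name Cell Ranger 3.0.2, Seurat 3.2.0 and mm10. The deposited counts are raw whole numbers for all barcodes, and a second deposited table gives the library and type of each cell that the authors kept, after removing those under 800 genes or above 10% mitochondrial reads, next to other per-cell values not used here. The authors' gene-by-cell expression tables were not used.

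UMIs of annotated cells were summed per library and cell type, with at least 10 cells per library, and scaled to CPM. No doublet caller was run here, and a removal of doublets by the authors is not given in the sources used here. The sums were tested with edgeR 4.0.16 in R 4.3.3 (quasi-likelihood test with TMM normalization, low genes removed by filterByExpr at a minimum count of 10, and p-values adjusted by Benjamini-Hochberg over the genes of a type). A call needed an FDR under 0.05 and an FC above 1.5, or above 2 between genotypes in striatum, the cutoffs of the study. Alternatives were DESeq2 1.42.0, library size alone, no filter, a replicate block and leaving out each library. Sums, shares and correlations were made in Python 3.11.15 (numpy 2.4.6, pandas 2.3.3, scipy 1.17.1). Shares were also taken after thinning cells to 1000 UMIs. Counting error alone underlies the limit of 3 UMIs for a count of 0.

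The genes and lists were chosen with earlier results of these data known. From the lists, 1 paralog and 1 cell type marker were left out and are not reported here. All 10 genes and *Setd1a* are named, with the genes called from each partner list or a selection of them, and the 3 genes closest to each pattern. Libraries of the same number pair through the methods, which put 1 library of each genotype in each replicate. Deviations from the genotype mean correlated between paired libraries by 0.11 to 0.60 over PFC types and by 0.097 to 0.40 over striatal types. P-values between genotypes, between tissues and of their interaction measure the spread between pools of 2 mice. The main genotype fits left out the pairing, so that spread includes any gap shared by paired libraries. In the contrasts of neurons with other cells the library was a block. P-values there measure the scatter of cell types within libraries. Tested on simulated counts, edgeR recovered 5.5% of 2-fold and 95.0% of 4-fold changes between genotypes in PFC excitatory neurons (11616 and 11630 genes). In D1 MSNs it recovered 2.5% and 98.0% (10987 and 10983 genes). The simulated libraries had the same dispersion for every gene and no gap between replicates, and genes with low expected counts were not changed. These shares are therefore not the power for the genes of the block.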

Additional observations from a re-analysis of the deposited data

How the results depend on the processing

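Of 8 counts of calls, the 4 between genotypes were 0 under DESeq2, library size alone, no filter and the replicate block. Leaving out each library in turn gave 0 to 1 calls in PFC types and 0 to 3 in the excitatory subtypes, all of *Sez6l2* without *Setd1a*+/- replicate 2. The number of calls between tissues was 4, and it was 13 without the filter on low counts, 9 with the replicate block, and 2 to 8 when 1 library was left out, lowest without PFC WT replicate 1 (2), and 7 and 8 without PFC WT and *Setd1a*+/- replicate 2. The striatal count between neurons and other cells was 4 to 5. The replicate block was not fitted for the contrasts between neurons and other cells or for the interaction of tissue and genotype. The cause of these shifts was not tested.

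The sign of the genotype estimate of *Sez6l2* in PFC depended on the libraries. In interneurons it ranged from -2.76 to 0.52 when 1 library was left out, with 0.07 without PFC WT replicate 2, and in SL-Cux2 neurons from -2.50 to 0.60, with 0.44 without that library. In SL-Myh7 neurons, at 0.01, it ranged from -2.49 to 1.02, with -0.52 without PFC WT replicate 1, and it was -0.030 with library size alone and -0.12 with the replicate block. Low counts limit *Prrt2* in every type and *Taok2* in DL-Foxp2 neurons, where the lowest library held 4 UMIs.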

Other observations

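Some paralogs of the genes of the block were highest in other cell types than the gene itself. *Aldoc*, the aldolase C gene, was at 10402 ± 910 CPM in PFC astrocytes and 6868 ± 2081 CPM in striatal astrocytes (SD, n = 4 libraries), and edgeR called it lower in neurons of both tissues, by log2 FCs of -2.12 and -2.85, whereas *Aldoa* was called higher. *Doc2b* was at 38.0 ± 6.10 CPM in D1 MSNs and 40.8 ± 6.37 CPM in D2 MSNs, the cells in which *Doc2a* was near 0, and at 2.12 CPM in PFC excitatory neurons.

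*Kctd10* and *Tnfaip1*, the paralogs of *Kctd13*, were highest in endothelial cells, at 175 and 205 CPM in PFC and 191 and 201 CPM in striatum. *Sez6l* was at 120 and 104 CPM in newly formed oligodendrocytes of PFC and striatum, the lineage stage in which the mean of *Sez6l2* was lowest, and *Sez6* was at 215 CPM in D2 MSNs.

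Other 16p11.2 genes fell on both sides of the contrast between neurons and non-neuronal cells. Of 12 tested in PFC, 6 were called higher in neurons and 2 lower, against 32.5 and 25.1% of all genes. Of 13 tested in striatum 5 were called higher and 2 lower, against 27.6 and 22.0%. *Asphd1*, which lies next to *Kctd13*, was higher by log2 FCs of 4.83 and 3.77 and *Fam57b* by 3.57 and 2.01. *Mvp*, the major vault protein gene, was lower by -1.86 and -1.81. *Kif22*, a mitotic kinesin gene, and *Hirip3* were at 169 ± 27.7 and 134 ± 21.3 CPM in striatal neural stem cells and neuroblasts, the type in which *Ppp4c* was highest. *Asphd1* and *Kctd13* share 65 exon bases on opposite strands.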
